A study of Mus musculus with 16 samples.

Results

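The levels of 42 genes of the lysosome, its proton pump and autophagy were followed in mouse brown and white fat at 5 °C and 30 °C. The genes were chosen by symbol, and each symbol was matched to 1 Ensembl identifier of the count table, so that 42 of 46078 identifiers are described. They comprise 3 transcription factors (Tfeb, Tfe3, Mitf), 6 proteins of the lysosomal membrane (Lamp1, Lamp2, Scarb2, Cd63, Mcoln1, Npc1) and 10 cathepsins (Ctsa, Ctsb, Ctsc, Ctsd, Ctsf, Ctsh, Ctsk, Ctsl, Ctss, Ctsz). A further 9 act on lipids and sugars or serve as cofactors (Lipa, Gaa, Gla, Hexa, Gusb, Neu1, Psap, Npc2, Grn). The remaining members are 7 genes of the proton pump (Atp6v0a1, Atp6v0d1, Atp6v0d2, Atp6v1a, Atp6v1b2, Atp6v1h, Atp6ap1) and 7 genes of autophagy (Sqstm1, Map1lc3a, Map1lc3b, Gabarapl1, Ulk1, Becn1, Atg7).

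Lysosomes are acidic compartments in which hydrolases break down proteins, lipids, glycans and whole organelles, and the vacuolar ATPase (V-ATPase) pumps the protons that these enzymes need. Autophagy wraps cytoplasm in a double membrane and delivers it to the lysosome. TFEB, TFE3 and MITF are related transcription factors that bind the E-box CACGTG, which is frequent upstream of lysosomal genes. In fat, lysosomal acid lipase splits lipids that reach the lysosome, and autophagy is known to remove mitochondria when thermogenic adipocytes lose their brown-fat features.

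Poly(A)-selected RNA was sequenced from 16 libraries of female wild-type C57BL/6 mice aged 16 weeks, in 4 groups of 4. In the groups BAT_5C and WAT_5C, brown and inguinal white fat came from mice moved to a climate chamber at 10 to 12 weeks, held at 18 °C for 2 weeks and then at 5 °C for 3 weeks. In the groups BAT_30C and WAT_30C the mice stayed at 30 °C, the temperature at which all mice had been bred and weaned, and food was withdrawn for 2 to 3 h before collection in all groups. No genetic change or drug is given for any group. The question of the series is how the 2 fat depots differ in gene expression after cold housing.

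The libraries hold 54264023 to 71289020 counts each. For brown fat the tissue entry also reads inguinal, but Ucp1, the uncoupling protein of brown fat, was at 12387 to 13786 CPM in BAT_5C (CPM is a counts-per-million value), while BAT_30C ranged between 633 and 2019 CPM. White fat was far lower, at 6.08 to 398 CPM (WAT_5C) and 0.0838 to 0.324 CPM (WAT_30C). A further source label gives the opposite temperature in 4 of the 8 brown fat libraries, so counts were also made in the 4 whose labels all match. Nothing states that the libraries come from separate mice, so p-values measure the spread between libraries.

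One library stands apart from its label. WAT_5C replicate 1 held 3 counts of Xist, where the other 15 held 11136 to 88934. Y-linked genes held 17183 counts in it and at most 45 in any other library. Its mammary epithelial markers summed to 18.3 CPM, against 1494 to 1547 CPM in the other WAT_5C libraries, and its 9 adipocyte markers to 20812 CPM, against 5371 to 8091 CPM. For 28 of the 42 members this library lay above the other 3 of its group and for 7 below them. Counts of members that rest on white fat at 5 °C are therefore given with and without it. Fold changes there are given without it, with its value added where a member is described in full.

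The E-box named above was looked for upstream of the members' start sites. The 250 bases before the RefSeq start (GRCm38.p6) are shown for 3 members with E-boxes, for the 2 largest rises, which have none, and for the largest fall that passed the test. They run 5′ to 3′ along the gene, at chr8:13158911-13159160 (plus strand) for Lamp1, chr8:3500269-3500518 (plus) for Mcoln1, chr7:142387828-142388077 (minus) for Ctsd, chr2:174439040-174439289 (minus) for Ctsz, chr19:34527475-34527724 (minus) for Lipa and chr10:128909095-128909344 (plus) for Cd63. Capitals mark CACGTG.
Lamp1: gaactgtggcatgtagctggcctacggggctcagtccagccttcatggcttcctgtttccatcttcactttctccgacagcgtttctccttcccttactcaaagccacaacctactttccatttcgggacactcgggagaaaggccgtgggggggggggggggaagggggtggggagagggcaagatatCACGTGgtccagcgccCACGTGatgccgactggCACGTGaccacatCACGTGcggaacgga
Mcoln1: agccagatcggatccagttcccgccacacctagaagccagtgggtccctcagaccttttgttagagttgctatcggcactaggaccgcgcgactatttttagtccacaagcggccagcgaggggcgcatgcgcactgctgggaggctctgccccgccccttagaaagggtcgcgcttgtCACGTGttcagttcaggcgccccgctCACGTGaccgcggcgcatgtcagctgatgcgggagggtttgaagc
Ctsd: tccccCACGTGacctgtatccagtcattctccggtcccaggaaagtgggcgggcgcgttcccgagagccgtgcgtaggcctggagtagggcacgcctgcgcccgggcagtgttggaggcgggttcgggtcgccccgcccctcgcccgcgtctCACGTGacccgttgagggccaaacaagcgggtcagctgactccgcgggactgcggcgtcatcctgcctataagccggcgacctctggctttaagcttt
Ctsz: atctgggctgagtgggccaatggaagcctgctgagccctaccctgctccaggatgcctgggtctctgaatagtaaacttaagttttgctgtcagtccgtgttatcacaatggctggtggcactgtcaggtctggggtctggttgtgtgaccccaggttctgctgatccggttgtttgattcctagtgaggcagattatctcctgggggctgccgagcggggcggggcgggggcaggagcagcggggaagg
Lipa: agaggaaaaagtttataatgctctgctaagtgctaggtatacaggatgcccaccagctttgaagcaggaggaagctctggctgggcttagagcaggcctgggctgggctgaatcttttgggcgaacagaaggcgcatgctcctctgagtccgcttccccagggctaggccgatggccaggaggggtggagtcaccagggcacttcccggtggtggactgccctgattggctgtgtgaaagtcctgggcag
Cd63: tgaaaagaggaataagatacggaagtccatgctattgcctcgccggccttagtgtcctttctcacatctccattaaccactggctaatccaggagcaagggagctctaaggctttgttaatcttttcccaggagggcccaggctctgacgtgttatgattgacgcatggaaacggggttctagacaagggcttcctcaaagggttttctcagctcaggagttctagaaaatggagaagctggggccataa

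Lamp1 carried 4 E-boxes within 61 bases of its start, Mcoln1 carried 2 and Ctsd carried 2, while Ctsz, Lipa and Cd63 carried none. The letters were searched on both strands of a 300-base window, 250 before and 50 after the start, and CACGTG reads alike on both. Of the 34 members with a window, 11 (32.4%) held CACGTG, as did 2187 of 27025 genes (8.09%). The longer TCACGTG, which contains it, was held by 9 members (26.5%), beside 4.29% of all genes. Further members with CACGTG were Ctsa, Ctsf, Ctsl, Gaa, Gla, Atp6v0d1, Atp6v1a and Atg7. By the response in brown fat given below, 7 of 23 members that rose, 1 of 4 that fell and 3 of 7 that passed in neither direction held it. A match describes letters in this window and is no evidence of binding. Ctsb, Ctsh, Npc1, Atp6v0d2, Atp6v1b2, Atp6v1h, Map1lc3a and Becn1 were not in the promoter table.

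Summed over the 42 members under TMM scaling, brown fat at 5 °C held the highest level. TMM factors, which rescale the library totals, were 0.624 to 0.664 in BAT_5C and 1.27 to 1.45 in WAT_5C without replicate 1. The order between the depots therefore rests on this scaling. The sum was 15957 to 16738 CPM in BAT_5C, against 8882 to 9841 CPM in BAT_30C. In white fat it was 7118 to 8890 CPM in WAT_5C without replicate 1 (11134 CPM in that replicate), against 5671 to 6723 CPM in WAT_30C. Neither pair of groups overlapped. Per kilobase of exon, Ctsd, Psap and Ctsb ranked in the first 3 places in every group. Ctsd, the main aspartic protease of the lysosome, averaged 1323 CPM per kb in BAT_5C and 428 CPM per kb in BAT_30C, and 425 CPM per kb in WAT_5C without replicate 1 and 242 CPM per kb in WAT_30C. Psap, the precursor of the saposins that help enzymes reach glycolipids, averaged 1181 CPM per kb in BAT_5C and 908 CPM per kb in BAT_30C. These 3 genes made up 57.4% of the members' sum in BAT_5C and 53.9% in BAT_30C, and 48.6% in WAT_5C (46.9% without replicate 1) and 42.6% in WAT_30C. By level per kilobase Ctsz ranked 4 of 42 in BAT_5C at 489 CPM per kb, against 84.1 CPM per kb and rank 7 in BAT_30C. At the low end, Atp6v0d2 was last of the 42 in every group, and Mitf averaged 1.66 CPM per kb in BAT_5C and 1.85 CPM per kb in BAT_30C.

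**Figure D1:**
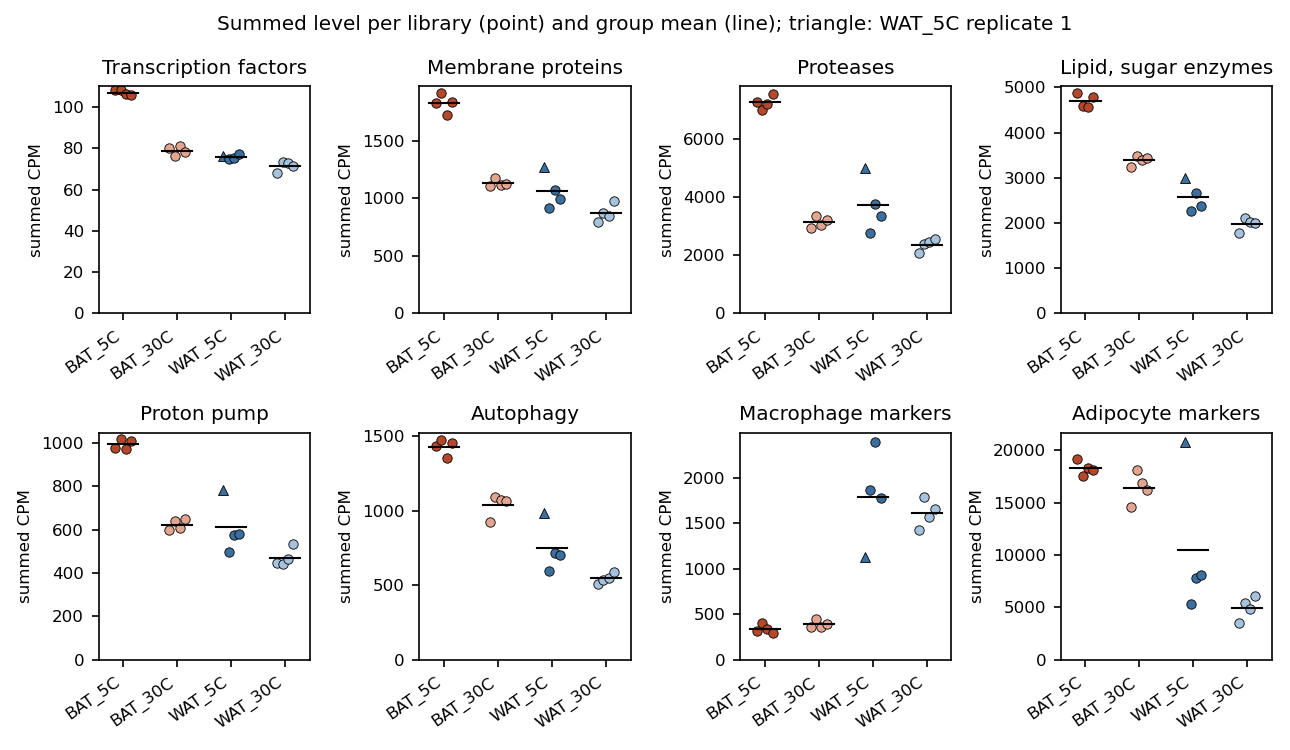
Summed CPM of each class of members and of macrophage and adipocyte markers (y axis, from 0) in each library (point), by group (x axis), with the group mean as a line and WAT_5C replicate 1 as a triangle. Under TMM scaling the BAT_5C libraries lie above the BAT_30C libraries in 6 of 6 classes of members. The macrophage sums of these groups overlap, while the geometric means of the same markers, which are not drawn, do not.

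Most members rose in brown fat after cold housing. In BAT_5C against BAT_30C, 28 of 42 members (66.7%) rose, 4 (9.52%) fell and 10 passed in neither direction (edgeR quasi-likelihood test, adjusted p under 0.05 over 16213 genes), where 59.5% of all genes tested passed (29.2% rose and 30.3% fell). The members' median log2 fold change was 0.43, beside −0.05 over all genes. The BAT_5C libraries lay wholly above the BAT_30C libraries for 28 members and wholly below for 4, where 27.6% of all genes tested did each. By class, 2 of 3 transcription factors, 4 of 6 membrane proteins, 3 of 10 cathepsins, 6 of 9 lipid and sugar genes, 6 of 7 pump genes and 7 of 7 autophagy genes rose. The falls were 1 membrane protein and 3 cathepsins.

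These counts rest on the scaling. With library totals in place of TMM factors the median of all genes moved by −0.38 on the log2 scale, and 16 members were higher and 14 lower, where 68.8% of all genes passed. By class, library totals gave 1 rise and 1 fall among the transcription factors, 4 and 2 among membrane proteins, 3 and 6 among cathepsins, 2 and 2 among lipid and sugar genes, 4 and 1 among pump genes and 2 and 2 among autophagy genes. Relative to the median of all genes the members' median was 0.48 higher under either scaling. A change of scaling moves both medians about alike, so this value cannot test the scaling. The 4 libraries whose labels all match gave 23 rises and 2 falls, where 36.6% of all genes passed. In bulk RNA, fewer cells of a type and less RNA per cell cannot be told apart.

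**Figure D2:**
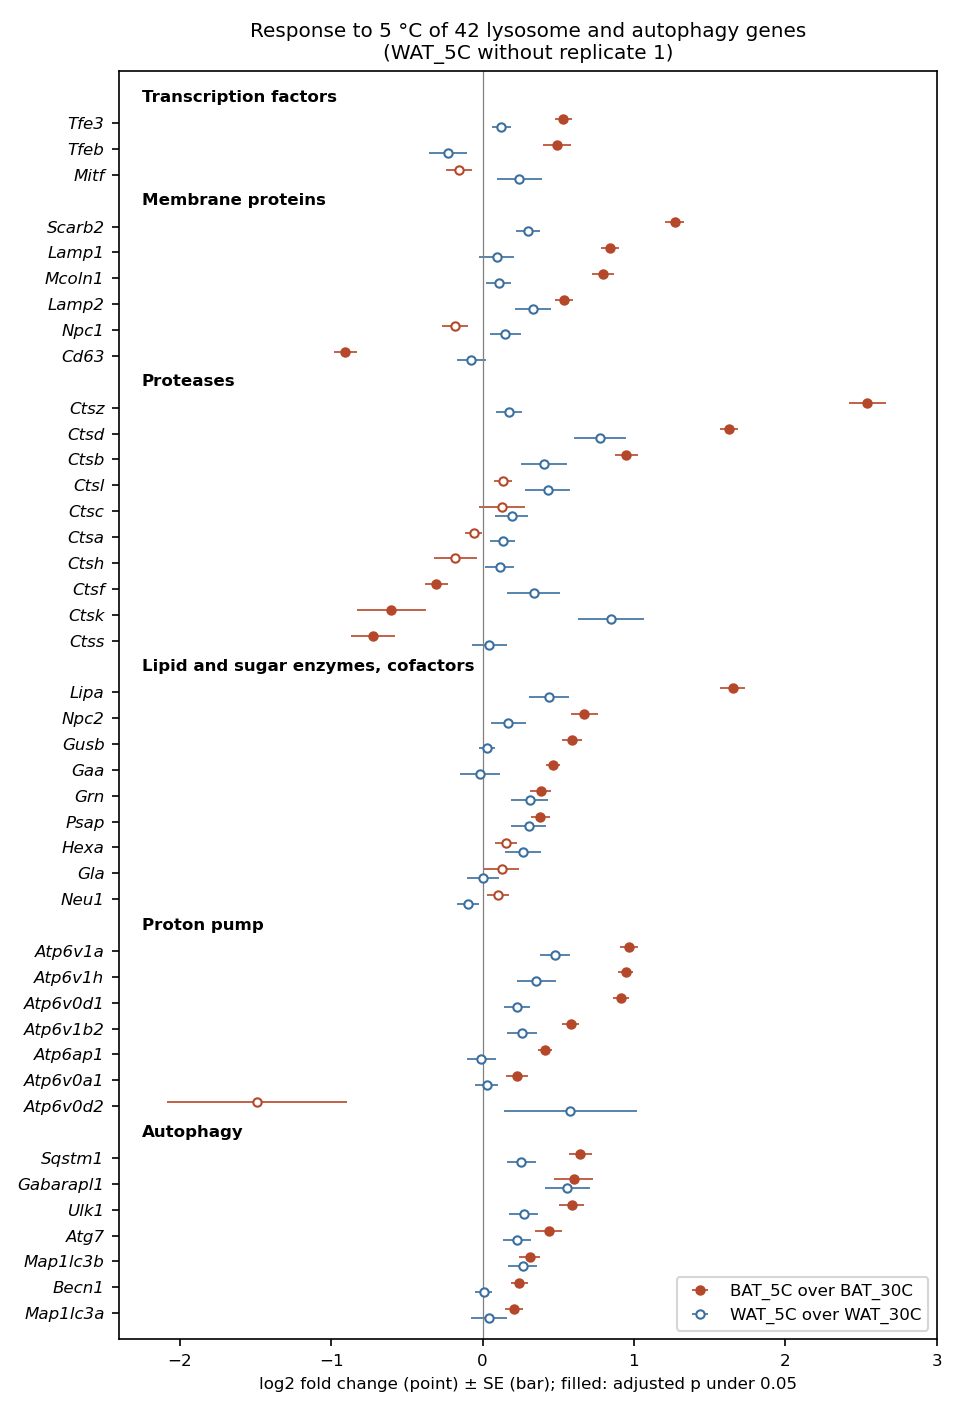
Log2 fold change (point) with its SE (bar) for each of the 42 members in BAT_5C over BAT_30C and in WAT_5C over WAT_30C without WAT_5C replicate 1, by class, and filled where the adjusted p was under 0.05. In brown fat 28 members are filled above 0 and 4 below under TMM scaling (16 and 14 with library totals), while no point of white fat is filled. Of all genes in brown fat, 59.5% passed under TMM scaling and 68.8% with library totals.

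Under TMM scaling both Tfeb and Tfe3 rose in brown fat, and Mitf did not pass the test. With library totals, by the class counts above, the rises of Tfeb and Tfe3 did not both pass, and Mitf passed as a fall. Tfe3 stood at 76.2, 70.0, 71.7 and 70.9 CPM in BAT_5C, against 50.2, 47.2, 49.9 and 52.4 CPM in BAT_30C. Tfeb stood at 22.5, 26.6, 23.8 and 25.3 CPM in BAT_5C, against 18.8, 17.3, 19.1 and 14.8 CPM in BAT_30C. The groups did not overlap for either gene. The log2 fold change was 0.53 ± 0.05 for Tfe3 (SE, adjusted p = 2.51e-05) and 0.49 ± 0.09 for Tfeb (adjusted p = 0.00135). Mitf stood at 9.31, 11.6, 10.6 and 9.64 CPM in BAT_5C, against 11.2, 11.6, 12.0 and 11.2 CPM in BAT_30C, and its groups overlapped (log2 fold change −0.16 ± 0.09, adjusted p = 0.157). In white fat Tfe3 stood at 47.1, 41.6, 42.1 and 44.5 CPM in WAT_5C, against 37.4, 38.3, 36.9 and 40.4 CPM in WAT_30C. Tfeb stood at 17.03, 19.2, 19.1 and 18.1 CPM in WAT_5C, against 21.1, 21.4, 25.8 and 17.6 CPM in WAT_30C. The Tfe3 groups of white fat did not overlap and the Tfeb groups did, and neither change passed the test (adjusted p = 0.263 and 0.313 without WAT_5C replicate 1, and 0.275 and 0.305 with it). Mitf stood at 12.1, 13.8, 14.3 and 14.5 CPM in WAT_5C, against 9.42, 13.9, 10.2 and 13.3 CPM in WAT_30C, with overlap.

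**Figure D3:**
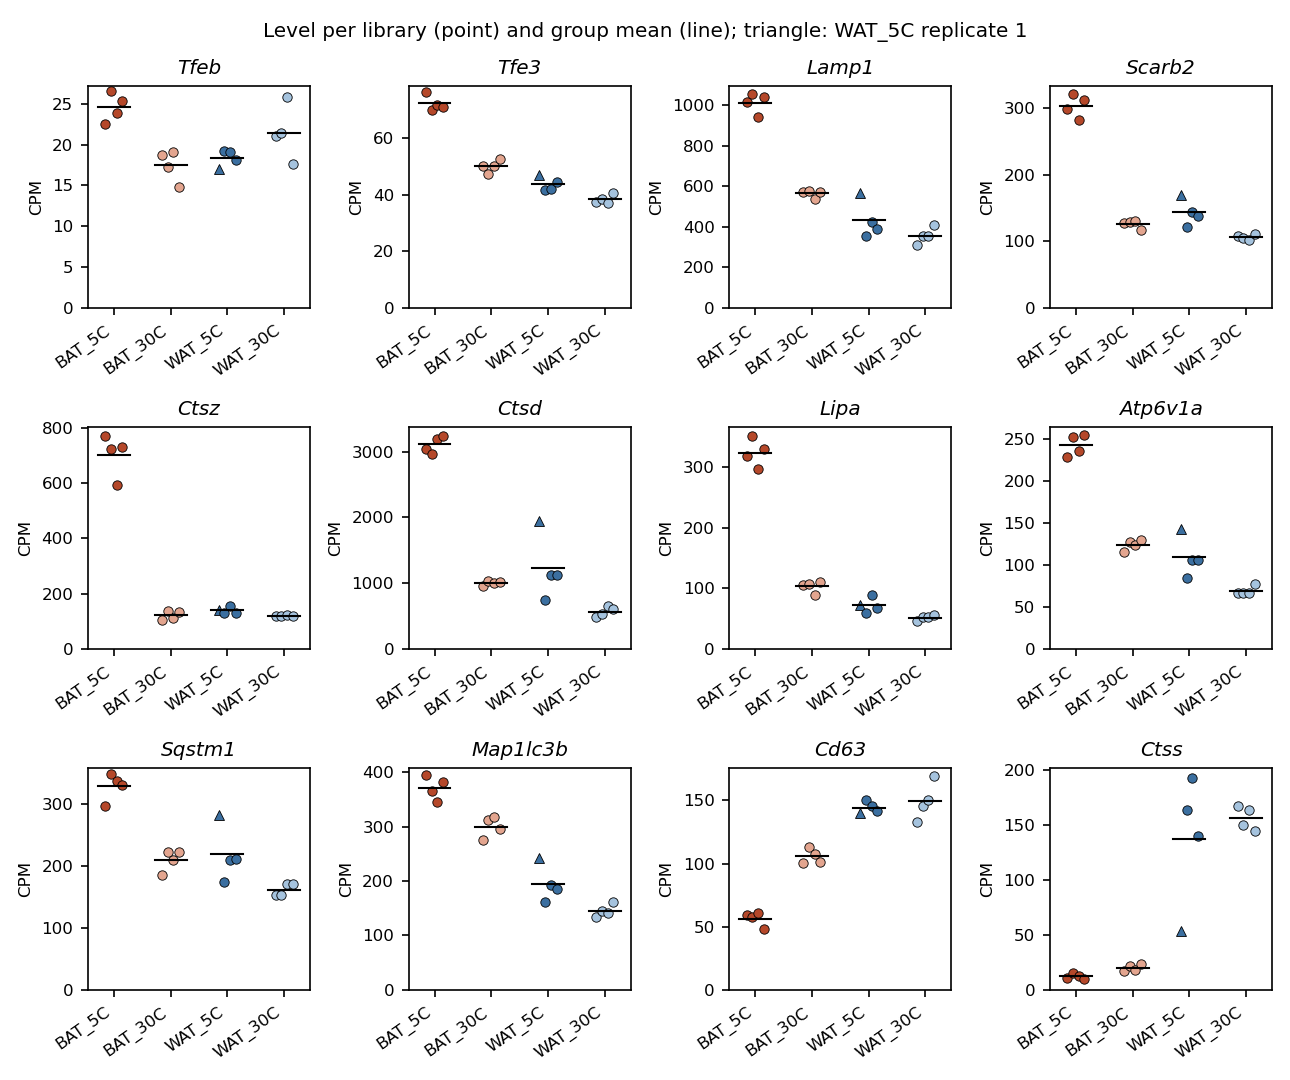
Level in CPM (y axis, from 0) of 12 members in each library (point), by group (x axis), with the group mean as a line and WAT_5C replicate 1 as a triangle. Under TMM scaling Ctsz, Scarb2, Ctsd and Lipa show BAT_5C libraries far above the other 3 groups, and Ctss is low in all 8 brown fat libraries.

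Among membrane proteins, Scarb2 moved most. It encodes LIMP-2, the receptor that carries glucocerebrosidase to the lysosome, and stood at 299, 322, 282 and 311 CPM in BAT_5C, against 128, 129, 130 and 117 CPM in BAT_30C. In white fat it stood at 169, 121, 145 and 138 CPM in WAT_5C, against 109, 105, 102 and 110 CPM in WAT_30C. The 5 °C libraries lay above the 30 °C libraries in both depots, and the change passed the test in brown fat (log2 fold change 1.27 ± 0.06, adjusted p = 3.24e-07) and not in white fat without WAT_5C replicate 1 (0.30 ± 0.08, adjusted p = 0.0862, and 0.40 ± 0.11, adjusted p = 0.186 with it). Lamp1, a heavily glycosylated protein that lines the lysosomal membrane, stood at 1016, 1057, 943 and 1039 CPM in BAT_5C, against 570, 579, 540 and 571 CPM in BAT_30C. Its white fat values were 566, 355, 425 and 391 CPM in WAT_5C, against 312, 354, 354 and 408 CPM in WAT_30C. The brown fat groups of Lamp1 were apart (0.85 ± 0.06, adjusted p = 2.27e-06), and the white fat groups overlapped. Lamp2, its relative, rose by 0.54 ± 0.06 in brown fat, and the calcium channel gene Mcoln1 by 0.80 ± 0.07. Cd63, a tetraspanin of late endosomes and lysosomes, fell to 59.4, 57.4, 60.6 and 48.0 CPM in BAT_5C, against 101, 113, 108 and 101 CPM in BAT_30C. No BAT_5C library reached the lowest BAT_30C library (log2 fold change −0.91 ± 0.08, adjusted p = 6.78e-06). In white fat Cd63 stood at 140, 150, 145 and 141 CPM in WAT_5C, against 133, 146, 151 and 170 CPM in WAT_30C, with overlap. Npc1, which moves cholesterol out of the lysosome, did not pass in brown fat (−0.18 ± 0.08, adjusted p = 0.0898), but passed without BAT_30C replicate 1 (−0.23, adjusted p = 0.0262).

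Cathepsins split into rises, falls and members that passed in neither direction. Ctsz, a carboxypeptidase, had the largest rise of all members and stood at 770, 723, 593 and 730 CPM in BAT_5C, against 104, 136, 111 and 135 CPM in BAT_30C, and at 142, 131, 157 and 129 CPM in WAT_5C, against 120, 120, 122 and 118 CPM in WAT_30C. Its brown fat groups were far apart (log2 fold change 2.54 ± 0.12, or 5.82-fold, adjusted p = 2.61e-07), while the difference in white fat did not pass (0.18 ± 0.09 without WAT_5C replicate 1, adjusted p = 0.26, and 0.19 ± 0.09, adjusted p = 0.305 with it). Ctsd stood at 3048, 2959, 3199 and 3237 CPM in BAT_5C, against 962, 1040, 1005 and 1022 CPM in BAT_30C. In white fat it stood at 1945, 748, 1125 and 1125 CPM in WAT_5C, against 483, 527, 658 and 605 CPM in WAT_30C. Neither pair of Ctsd groups overlapped. Its log2 fold change was 1.63 ± 0.06 in brown fat (adjusted p = 6.85e-08) and 0.78 ± 0.17 in white fat without WAT_5C replicate 1 (adjusted p = 0.0623, and 1.09 ± 0.29, adjusted p = 0.174 with it). The exons of Ctsd overlap those of Gm49369 on the same strand over 34.4% of their length. Ctsb, an abundant cysteine protease, averaged 3031 ± 132 CPM in BAT_5C and 1572 ± 126 CPM in BAT_30C (SD, n = 4 each), a rise of 0.95 ± 0.07. Together Ctsb and Ctsd made up 84.5% of the cathepsin sum in BAT_5C and 82.2% in BAT_30C, and 73.0% in WAT_5C (69.0% without replicate 1) and 63.9% in WAT_30C.

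The cathepsins that fell in brown fat were Ctss, Ctsk and Ctsf. Ctss, which processes antigens in phagocytes, stood at 11.1, 15.3, 12.2 and 9.84 CPM in BAT_5C, against 17.4, 21.2, 18.0 and 23.7 CPM in BAT_30C, and the groups did not overlap (log2 fold change −0.72 ± 0.15, adjusted p = 0.00193). White fat held far more, at 53.4, 164, 192 and 139 CPM in WAT_5C, against 167, 150, 164 and 144 CPM in WAT_30C, with the lowest value in WAT_5C replicate 1. Ctsk, the collagen-cutting cathepsin known from osteoclasts, stood at 6.11, 5.45, 5.58 and 2.69 CPM in BAT_5C, against 8.02, 7.98, 6.38 and 7.69 CPM in BAT_30C. The Ctsk groups did not overlap, but the margin was small (−0.60 ± 0.23, adjusted p = 0.0423). Its call was lost without BAT_30C replicate 1, 2, 3 or 4 and without BAT_5C replicate 2 or 3 (adjusted p = 0.0551 to 0.104). In white fat Ctsk ran the other way, at 33.8, 48.4, 57.9 and 46.0 CPM in WAT_5C, against 16.5, 31.7, 29.2 and 32.4 CPM in WAT_30C, without overlap and short of the threshold (0.85 ± 0.22, adjusted p = 0.0825 without WAT_5C replicate 1, and 0.73 ± 0.24, adjusted p = 0.218 with it). Ctsf stood at 71.9, 73.3, 64.3 and 69.3 CPM in BAT_5C, against 74.8, 91.9, 90.4 and 88.0 CPM in BAT_30C, without overlap (−0.31 ± 0.08, adjusted p = 0.0065). Ctsf in white fat stood at 38.6, 25.9, 32.9 and 26.8 CPM in WAT_5C, against 16.1, 27.5, 21.6 and 22.8 CPM in WAT_30C, with overlap.

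Macrophages are cells rich in Ctss and other cathepsins. Of 19 macrophage markers tested in brown fat, of 20 listed, 0 rose and 8 fell, where 30.3% of all genes fell. Their summed level was 289 to 409 CPM in BAT_5C, against 356 to 449 CPM in BAT_30C, so the sums overlapped. The geometric mean of the 20 markers was 5.09 to 6.73 CPM in BAT_5C, against 7.91 to 9.54 CPM in BAT_30C, without overlap. Of the defining markers Adgre1 was at 10.1 to 18.5 CPM and 12.1 to 13.3 CPM in these groups. None of Adgre1, Cd68, Csf1r and Mrc1 was at 0. Stromal markers fell for 6 of 10 and lymphocyte markers for 7 of 11. The part of these cells in the falls of Ctss and Ctsk was not tested.

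The other 4 cathepsins did not pass in brown fat under TMM scaling. Ctsa, which protects other lysosomal enzymes, had a log2 fold change of −0.06 ± 0.05, and Ctsl of 0.13 ± 0.06, which passed without BAT_30C replicate 2 (0.19, adjusted p = 0.0248). Ctsh stood at 13.7, 18.6, 16.0 and 10.9 CPM in BAT_5C, against 18.3, 16.6, 15.6 and 16.7 CPM in BAT_30C. Ctsc, which activates proteases of immune cells, stood at 25.4, 38.4, 30.6 and 21.3 CPM in BAT_5C, against 28.5, 26.0, 27.1 and 24.1 CPM in BAT_30C. Both pairs overlapped, and the sign for Ctsc turned without BAT_5C replicate 2 (−0.03, against 0.13 with it). White fat held more of both: Ctsh stood at 60.4, 111, 134 and 102 CPM in WAT_5C, against 106, 101, 104 and 108 CPM in WAT_30C. Ctsc stood at 154, 149, 184 and 143 CPM in WAT_5C, against 122, 136, 136 and 147 CPM in WAT_30C. Both overlapped between the temperatures.

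Lipa, the lysosomal acid lipase, led the lipid and sugar genes. It stood at 318, 351, 296 and 331 CPM in BAT_5C, against 106, 107, 89.0 and 111 CPM in BAT_30C. White fat held less, at 72.7, 59.4, 89.4 and 67.1 CPM in WAT_5C, against 46.7, 52.9, 52.2 and 55.3 CPM in WAT_30C. The 5 °C libraries lay above in both depots, by 1.65 ± 0.08 on the log2 scale in brown fat (3.14-fold, adjusted p = 3.78e-07) and by 0.44 ± 0.13 in white fat without WAT_5C replicate 1, which did not pass (adjusted p = 0.111, and 0.45 ± 0.13, adjusted p = 0.186 with it). In brown fat Npc2, which hands cholesterol to NPC1, rose by 0.67 ± 0.09, Gusb by 0.59 ± 0.07 and Gaa, which degrades glycogen, by 0.46 ± 0.05. Grn, the progranulin gene, and Psap each rose by 0.38 ± 0.07 and 0.38 ± 0.06. With library totals the changes of Grn (0.0067), Psap (0.002), Gaa (0.0842) and Gusb (0.2087) did not pass, and Lipa (1.27) and Npc2 (0.29) did. Gla, Hexa and Neu1, which trim glycolipids and glycoproteins, did not pass, with log2 fold changes of 0.13 ± 0.12, 0.16 ± 0.07 and 0.10 ± 0.07. Hexa passed without BAT_5C replicate 4 (0.21, adjusted p = 0.0311). Gla, Hexa and Neu1 stood at −0.26, −0.22 and −0.28 with library totals.

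Of the 7 proton pump genes, 6 rose under TMM scaling and Atp6v0d2 did not pass. Atp6v1a, the catalytic subunit of the cytosolic V1 sector, stood at 229, 252, 236 and 255 CPM in BAT_5C, against 116, 128, 124 and 129 CPM in BAT_30C, and at 143, 84.3, 106 and 106 CPM in WAT_5C, against 66.4, 66.1, 66.3 and 77.7 CPM in WAT_30C. Neither pair overlapped. The log2 fold change was 0.97 ± 0.06 in brown fat (adjusted p = 1.23e-06) and 0.48 ± 0.10 in white fat without WAT_5C replicate 1, where its adjusted p of 0.0555 was the smallest of the members. With that replicate it was 0.64 ± 0.16 (adjusted p = 0.152). Atp6v1h, which regulates the coupling of the sectors, rose by 0.94 ± 0.05, Atp6v0d1 of the membrane sector by 0.92 ± 0.05, Atp6v1b2 by 0.58 ± 0.06 and the accessory protein gene Atp6ap1 by 0.41 ± 0.05. Atp6v0a1 rose by 0.23 ± 0.08 (adjusted p = 0.0248), a call lost without BAT_5C replicate 3 (0.22, adjusted p = 0.0552) and a sign that turned with library totals (−0.15). Atp6v0d2, a subunit known from osteoclasts and some macrophages, stood at 0.820, 0.228, 0.400 and 0.321 CPM in BAT_5C, against 0.369, 2.46, 0.789 and 1.33 CPM in BAT_30C. These are 10 to 29 counts in BAT_5C and 20 to 133 counts in BAT_30C, and the groups overlapped (−1.49 ± 0.59, adjusted p = 0.0528). It passed without BAT_30C replicate 1 (−1.78, adjusted p = 0.015) and without BAT_5C replicate 1 (−1.96, adjusted p = 0.0269). In white fat it stood at 0.672, 0.837, 1.20 and 0.529 CPM in WAT_5C, against 0.346, 1.01, 0.413 and 0.454 CPM in WAT_30C, with overlap.

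All 7 autophagy members rose in brown fat under TMM scaling, though with library totals Map1lc3a, Map1lc3b and Becn1 ran below 0 (−0.17, −0.07 and −0.14). Sqstm1, the receptor p62 that ties ubiquitinated cargo to the growing membrane, stood at 297, 348, 337 and 331 CPM in BAT_5C, against 185, 223, 209 and 223 CPM in BAT_30C, and at 282, 174, 209 and 211 CPM in WAT_5C, against 153, 153, 171 and 170 CPM in WAT_30C. Neither pair overlapped, and the change passed in brown fat (0.65 ± 0.08, adjusted p = 5.7e-05) and not in white fat without WAT_5C replicate 1 (0.26 ± 0.09, adjusted p = 0.156, and 0.41 ± 0.15, adjusted p = 0.241 with it). Gabarapl1, an ATG8 protein of the autophagosome, stood at 288, 321, 235 and 291 CPM in BAT_5C, against 145, 213, 188 and 204 CPM in BAT_30C. In white fat it stood at 146, 73.7, 101 and 97.4 CPM in WAT_5C, against 48.3, 62.2, 58.7 and 71.1 CPM in WAT_30C. The groups were apart in both depots, by 0.60 ± 0.13 in brown fat (adjusted p = 0.00305) and 0.56 ± 0.15 in white fat without WAT_5C replicate 1 (adjusted p = 0.0877, and 0.77 ± 0.21, adjusted p = 0.181 with it). Map1lc3b, the ATG8 protein LC3B, stood at 395, 366, 345 and 382 CPM in BAT_5C, against 275, 313, 318 and 295 CPM in BAT_30C. Its white fat values were 243, 161, 193 and 185 CPM in WAT_5C, against 134, 144, 142 and 162 CPM in WAT_30C. The brown fat groups were apart (0.31 ± 0.07, adjusted p = 0.00382), and the white fat groups overlapped. Map1lc3a, the relative LC3A, stood at 161, 147, 156 and 149 CPM in BAT_5C, against 133, 132, 143 and 124 CPM in BAT_30C, without overlap (0.21 ± 0.06, adjusted p = 0.0135). In white fat Map1lc3a stood at 110, 40.5, 45.9 and 46.7 CPM in WAT_5C, against 33.8, 44.9, 42.9 and 46.5 CPM in WAT_30C, with replicate 1 of WAT_5C far above the rest. Ulk1, the kinase that starts autophagy, rose by 0.59 ± 0.08 in brown fat, Atg7, which activates the ATG8 proteins, by 0.44 ± 0.09 and Becn1, a subunit of the lipid kinase complex, by 0.24 ± 0.06.

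In white fat 0 of the 42 members passed the test. Without WAT_5C replicate 1, none of them did (edgeR quasi-likelihood test), where 2.11% of 19320 genes did (1.84% higher and 0.274% lower). An unadjusted p under 0.05 was held by 18 members, and by 4483 of the 19320 genes. With that library, 0 of 42 passed, where 0.0632% of 18975 genes did. The unadjusted p was then under 0.05 for 20 members and for 3430 of the 18975 genes. DESeq2 called 9 members without that library, where it called 12.3% of all genes, and 6 with it, where it called 5.9%. The log2 fold change was positive for 37 of 42 members without it, with a median of 0.23 beside −0.02 over all genes. Library totals gave a median of 0.09 beside −0.16. With that library the medians were 0.32 beside −0.01, and 0.05 beside −0.27 with library totals. The WAT_5C libraries lay wholly above the WAT_30C libraries for 14 members and wholly below for 0 without that library, where 12% and 7.03% of all genes tested did so. With it the counts were 13 and 0, where 8.26% and 5.41% of all genes did so. After Atp6v1a, the smallest adjusted p were those of Ctsd (0.0623), Ctsk (0.0825), Scarb2 (0.0862) and Gabarapl1 (0.0877). Without WAT_5C replicate 2 as well, Atp6v1a, Ctsd, Gabarapl1 and Scarb2 passed (0.57, 0.94, 0.67 and 0.36, with adjusted p of 0.0175, 0.0172, 0.0484 and 0.0492), and without WAT_30C replicate 1, Ctsk did (0.67, adjusted p = 0.033).

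Of the 9 adipocyte markers, 0 passed in white fat without WAT_5C replicate 1, with log2 fold changes of −1.42 to 0.76. They summed to 5371 to 8091 CPM in WAT_5C without replicate 1, against 3478 to 6066 CPM in WAT_30C, and the sums overlapped. The 20 macrophage markers summed to 1779 to 2391 CPM in WAT_5C without replicate 1, against 1428 to 1792 CPM in WAT_30C, with overlap, and 0 of 20 passed. Their geometric means in these groups, 43.1 to 53.9 CPM and 33.6 to 41.1 CPM, did not overlap. Skeletal muscle markers ranged from 10.8 to 213 CPM in WAT_5C without replicate 1, against 108 to 9173 CPM in WAT_30C. Their part in the white fat values was not tested.

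Cold responses of brown and white fat were then set against each other within a single fit. Without WAT_5C replicate 1, the response in brown fat exceeded that in white fat for 19 of 42 members and fell short of it for 4, where 31.3% of 19849 genes passed (15.7% and 15.6%). The members' median difference was 0.22, beside −0.06 over all genes, and library totals gave 9 and 9 members, where 34.9% of genes passed. With that library the counts were 9 and 4 of 42, where 20.8% of genes passed (8.34% and 12.5%). Library totals then gave 6 and 5, where 18.9% of genes passed. The smallest adjusted p were those of Ctsz (difference 2.38 ± 0.16 on the log2 scale, adjusted p = 2.55e-07), Scarb2 (0.98 ± 0.10, adjusted p = 1.09e-05) and Lipa (1.22 ± 0.17, adjusted p = 9.24e-05). All 3 also passed with WAT_5C replicate 1, at 2.32, 0.84 and 1.17. For Ctsd the difference was 0.86 ± 0.18 without that library and 0.51 ± 0.30 with it, which did not pass (adjusted p = 0.259).

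Tfeb, Tfe3, Lamp1, Mcoln1, Ctsb, Gaa, Gusb, Npc2, Atp6v0d1, Atp6v1a, Atp6v1b2, Atp6v1h, Atp6ap1, Sqstm1 and Becn1 also exceeded white fat without that library, by 0.25 to 0.76. Of these 15, Tfeb, Tfe3, Lamp1, Mcoln1, Gusb and Atp6v0d1 also passed with it (0.34 to 0.71). Cd63, Ctsf, Ctsk and Ctss ran the other way, by −0.64 to −1.45, and Cd63, Ctsf and Ctsk passed with it too (−0.80 to −1.36). The calls of Atp6v1b2, Becn1, Ctsf and Sqstm1 were lost when 1 further library was left out, as was that of Npc1, which passed with all 16 libraries alone (−0.45, adjusted p = 0.0479). Many single omissions also ended the 16-library calls of Lamp1 and Atp6v0d1 (quasi-likelihood test, adjusted p = 0.0558 to 0.0914 and 0.0501 to 0.0637). For Psap, Grn, Map1lc3b and Gabarapl1 the difference was 0.08 ± 0.12, 0.08 ± 0.14, 0.05 ± 0.12 and 0.05 ± 0.21, and did not pass. Mitf, Lamp2, Ctsa, Ctsc, Ctsh, Ctsl, Gla, Hexa, Neu1, Atp6v0a1, Atp6v0d2, Map1lc3a, Ulk1 and Atg7 did not pass either.

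At 30 °C the members differed between the depots about as often as all genes did. In BAT_30C against WAT_30C, 28 of 42 members passed (66.7%), 20 higher and 8 lower, where 69.8% of 19481 genes passed (34.5% higher and 35.3% lower). The median log2 fold change was 0.24, beside −0.03 over all genes. Library totals moved the median of all genes by −0.85 and gave 6 higher and 26 lower, where 78.9% of all genes passed. Directions between the depots therefore hold relative to the median of all genes. The 3 largest differences upward were those of Ctsf (1.97 ± 0.15, adjusted p = 5.86e-08), Map1lc3a (1.66 ± 0.25, adjusted p = 2.89e-05) and Gabarapl1 (1.64 ± 0.19, adjusted p = 2.73e-06), all 3 also above 0 with library totals. Downward, Ctss (−2.96 ± 0.29, adjusted p = 5.13e-07), Ctsh (−2.64 ± 0.20, adjusted p = 5.34e-08) and Ctsc (−2.36 ± 0.15, adjusted p = 1.34e-08) stood first, followed by Ctsk at −1.87 ± 0.25. By level per kilobase Ctss ranked 31 of 42 in BAT_5C and 26 in BAT_30C, against 5 in both WAT_5C and WAT_30C.

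Macrophage markers were lower in the same direction, for 18 of 20 in BAT_30C against WAT_30C. They summed to 356 to 449 CPM in BAT_30C, against 1428 to 1792 CPM in WAT_30C, and Csf1r stood at 30.5 to 36.2 CPM, against 87.4 to 142 CPM. All 11 lymphocyte markers and 9 of 10 stromal markers were lower as well. The part of these cells in the low cathepsins of brown fat was not tested.

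**Figure D4:**
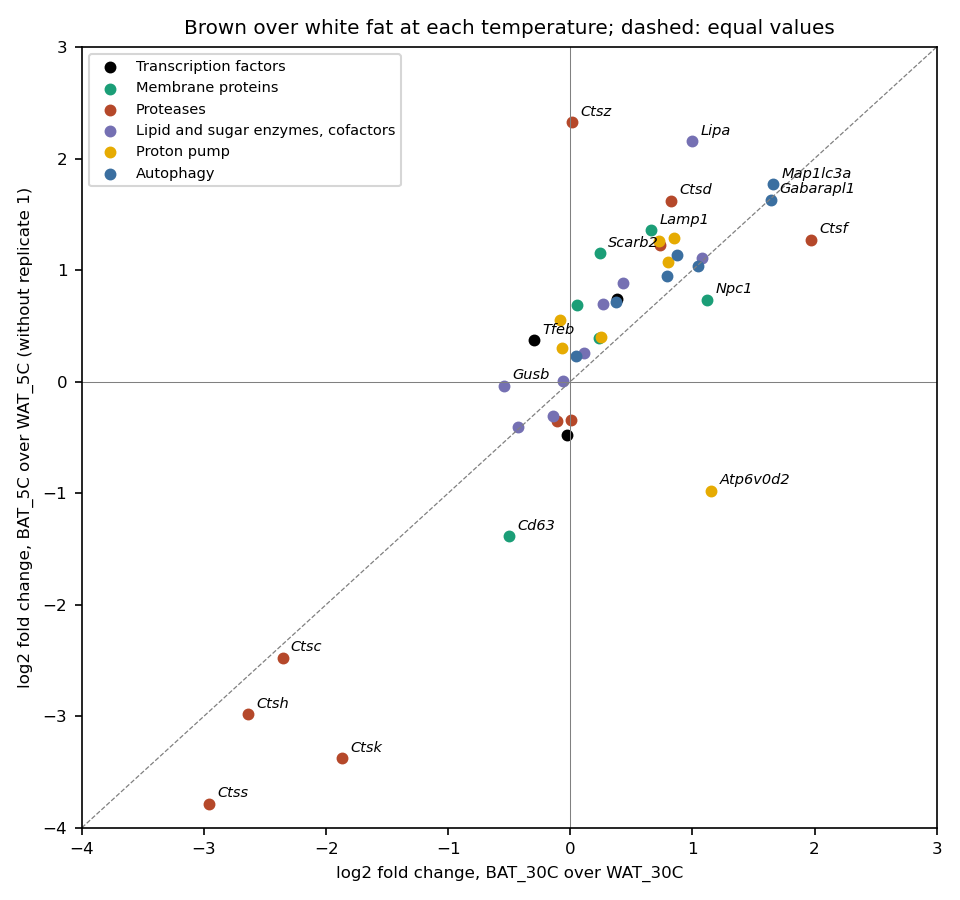
Log2 fold change of brown over white fat at 30 °C (x axis) and at 5 °C without WAT_5C replicate 1 (y axis) for the 42 members (points, by class), under TMM scaling, with a dashed line where both are equal. Ctsz, Lipa and Scarb2 lie far above the line, Cd63, Ctsk, Ctss and the low-count Atp6v0d2 below it, and Map1lc3a and Gabarapl1 near it.

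At 5 °C the depots lay further apart under TMM scaling. With library totals the members' median log2 fold change was −0.34 at 5 °C without WAT_5C replicate 1 (−0.31 with it), against −0.60 at 30 °C. In BAT_5C against WAT_5C without replicate 1, 29 of 42 members were higher and 10 lower, where 76.2% of 19849 genes passed (34% higher and 42.2% lower), and the median was 0.69 beside −0.19 over all genes. With that replicate the counts were 28 and 10, where 72.4% of genes passed (31.8% and 40.5%). Library totals gave 8 and 25 without that replicate, where 84.4% of genes passed, and 7 and 26 with it, where 82.1% did. Ctsz, level between the depots at 30 °C (0.01 ± 0.11), was 2.33 ± 0.13 higher in BAT_5C, and Lipa 2.15 ± 0.13 higher (2.33 and 2.17 with replicate 1). Tfeb, lower at 30 °C (−0.29 ± 0.11, adjusted p = 0.0264), was 0.37 ± 0.12 higher at 5 °C (adjusted p = 0.00977, and 0.42 ± 0.11, adjusted p = 0.00315 with replicate 1). The 30 °C call of Tfeb was lost without BAT_30C replicate 2 or 4 or WAT_30C replicate 3 (−0.29, −0.22 and −0.19, with adjusted p of 0.055, 0.0964 and 0.114). Cd63 was lower at both temperatures, by −0.50 ± 0.09 at 30 °C and −1.39 ± 0.09 at 5 °C (−1.36 ± 0.09 with replicate 1). The 2 comparisons with white fat and the cold comparisons share libraries.

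Further members higher in BAT_30C than in WAT_30C were Tfe3, Lamp1, Scarb2, Npc1, Ctsb, Ctsd, Lipa, Gaa, Psap, Npc2, Atp6v1a, Atp6v1b2, Atp6v1h, Sqstm1, Map1lc3b, Ulk1 and Atg7, by 0.24 (Scarb2) to 1.12 (Npc1). With library totals 12 of these 17 ran below 0, and Npc1, Lipa, Psap, Map1lc3b and Ulk1 did not. Gusb, Cd63 and Grn were lower, by −0.42 to −0.55. The calls of Gaa, Npc2 and Scarb2 were lost without any 1 of 12, 13 and 5 single libraries (adjusted p = 0.0522 to 0.162, 0.0519 to 0.119 and 0.0556 to 0.0721).

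Genes of the same pathways outside the 42 members are read against the 29.2% of all genes that rose in brown fat and the 30.3% that fell. With library totals 68.8% of all genes passed in either direction. Of the 14 further V-ATPase genes tested, of 16 listed, 10 rose and 3 fell (9 and 5 with library totals), with a median log2 fold change of 0.63. Atp6v0a2 rose by 1.40 ± 0.08, Atp6v0e by 0.98 ± 0.05, Atp6v1g1 by 0.90 ± 0.05 and Atp6v1d by 0.85 ± 0.05, all pump subunits. Atp6v1c2 fell by 4.27 (chosen after its value was seen), to 0.124 to 0.226 CPM in BAT_5C, against 2.53 to 4.41 CPM in BAT_30C. Lysosomal enzymes were split: 11 of 29 rose and 9 fell (5 and 18 with library totals), with a median of 0.05. Ctso fell by 1.26 ± 0.07 and the phospholipase gene Pla2g15 by 1.06 ± 0.10, while Acp5, an acid phosphatase, rose by 1.18 ± 0.11 and Fuca1 by 0.59 ± 0.05. Of 18 lysosomal membrane genes tested, of 20 listed, 8 rose and 2 fell (5 and 6 with library totals), among them Tmem192 (1.09 ± 0.08), Laptm4b (0.57 ± 0.06) and Clcn7 (0.40 ± 0.05).

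On the autophagy lists, rises outnumbered falls under TMM scaling. Of 17 genes that start autophagy, 11 rose and 0 fell, although library totals gave 2 and 6. Atg13, a partner of ULK1, rose by 1.05 ± 0.08, Atg2a by 0.76 ± 0.06, Vmp1 by 0.48 ± 0.06 and Ulk2 by 0.45 ± 0.06. Of 12 genes of the conjugation of ATG8 proteins, 9 rose and 0 fell (4 and 3 with library totals), among them the ATG8 genes Gabarap (0.67 ± 0.05) and Gabarapl2 (0.76 ± 0.06), and Atg4d (1.09 ± 0.10) and Atg5 (0.52 ± 0.06). Of 15 receptors and fusion genes, 11 rose and 1 fell (9 and 4 with library totals). Tecpr1 rose by 1.57 ± 0.09, the fusion genes Snap29 by 0.80 ± 0.05 and Vamp8 by 0.84 ± 0.06, and Bnip3l, a receptor for mitochondria, by 0.72 ± 0.05. Bnip3, its relative, was the gene that fell (−0.37 ± 0.11, adjusted p = 0.0131, chosen after its value was seen).

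The mTORC1 complex sits on the lysosome and restrains TFEB. The list tested holds 27 genes, of the complex and of its anchors, activators and inhibitors. Of these 27 genes, 16 rose and 5 fell (9 and 8 with library totals), with a median of 0.33. As activators and inhibitors are mixed, these counts give no direction for the complex. Mtor, its kinase, averaged 623 CPM in BAT_5C and 137 CPM in BAT_30C (2.19 ± 0.11, adjusted p = 3.96e-07). The anchor genes Lamtor1 and Lamtor2 rose by 1.07 ± 0.07 and 0.77 ± 0.06, and Rragc by 0.87 ± 0.06. Outside the naming rule and chosen after their values were seen, Flcn rose by 1.33 ± 0.11 and Rragd by 2.25 ± 0.29, while Rragb fell by 2.12 ± 0.19. Of 11 genes that sort enzymes to the lysosome, 8 rose and 2 fell (4 and 4 with library totals), led by Vps35 (0.68 ± 0.06), Gga2 (0.80 ± 0.07), Gnptg (0.86 ± 0.08) and Gnptab (0.89 ± 0.09). In white fat without WAT_5C replicate 1, 4 of the 146 genes tested on these 8 lists passed (2.74%), near the 2.11% of all genes. They were Galc (0.51, adjusted p = 0.0359), Gm2a (0.59, adjusted p = 0.0473), Optn (0.81, adjusted p = 0.0456) and Ncoa4 (0.60, adjusted p = 0.037), all higher in WAT_5C. With WAT_5C replicate 1, 0 of the 146 passed.

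Some members share sequence with other genes, and no strand setting is given for the counts. Exons of Becn1 overlap Cntd1 on the opposite strand over 43.9% of their length, those of Gabarapl1 overlap 1700101I11Rik over 28.3%, Sqstm1 overlaps Mrnip over 17.3%, and Ctsb overlaps Fdft1 and Hexa overlaps Tmem202 over 12.8% each. Ctsl and Ctsa overlap further genes over 26.9% and 17.4%. For Cd63, 11.1% of its 50-base windows also occur elsewhere, mainly in the pseudogene Cd63-ps. The counts of these genes and of Ctsd are uncertain to that extent.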

How the data were processed

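Poly(A)-selected RNA of 16 fat libraries was sequenced, 4 in each of 4 groups, and the titles gave group and replicate number. The authors deposited raw counts as a table of 46078 Ensembl identifiers. Per the submitters' processing notes, Trim Galore and TopHat were used, with no version. The sources used here give no counting program, strand setting, build or annotation. Symbols came from GENCODE M21 and named 45143 identifiers, and 935 without a name stayed in the tests.

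Counts passed filterByExpr (at least 10 counts, 15 in total), were scaled by TMM and tested by the quasi-likelihood F-test of edgeR 4.0.16 in R 4.3.3, with Benjamini-Hochberg adjustment over all genes tested and a threshold of 0.05. Each depot was fitted alone for temperature, and all 16 libraries (or 15) together for the depots and the difference of responses. Standard errors were obtained by dividing each log2 fold change by √F. CPM use TMM factors over all 16 libraries, and CPM per kb divides by the union of exons. Alternatives were RLE factors, library totals, no filter, DESeq2 1.42.0, a replicate block, the 4 brown fat libraries whose labels all match, and each library left out. The main fit was run on simulated counts with as many rises as falls, for each depot alone and for the difference of responses. The comparisons between depots and the alternatives were not run on simulated counts.

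Members and lists were chosen with earlier results of these data known. The members printed library by library are 10 fixed by name and those with the largest changes or smallest adjusted p by a stated rule: up to 4 rises and 4 falls in each depot, the 3 smallest adjusted p of the difference of responses and 3 extremes in each direction between depots at 30 °C. Of each further list up to 4 genes with the smallest adjusted p are named. The values of 1 listed gene are not reported here. The 24 pairs of libraries within groups all differed by more than sampling noise, with a chi-square per degree of freedom of at least 21.4. Promoters are those of RefSeq (GRCm38.p6), found for 34 of the 42 members. Exon overlaps and shared 50-base windows come from GENCODE M21 (GRCm38).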

Additional observations from a re-analysis of the deposited data

Results flagged for a closer look

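In 6 of 168 groups of 4 libraries a member had 1 library far from the other 3, where chance gives about 1 in 20. Gla stood at 6.87 CPM in WAT_5C replicate 3, against 6.16 to 6.20 CPM in the other WAT_5C libraries. WAT_5C replicate 1 stood high for Atp6v0a1 (114 CPM, against 68.3 to 75.9 CPM) and for Map1lc3a (110 CPM, against 40.5 to 46.7 CPM). In WAT_30C, replicate 4 stood high for Atp6v1a (77.7 CPM, against 66.1 to 66.4 CPM) and Atp6v1b2 (96.7 CPM, against 82.0 to 83.4 CPM), and replicate 2 for Atp6v0d2 (1.01 CPM, against 0.346 to 0.454 CPM).

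The cold responses of brown and white fat differed by the test of the difference itself for 23 members without WAT_5C replicate 1. Of the 42 members, 19 were higher and 4 lower, where 31.3% of 19849 genes passed (15.7% higher and 15.6% lower). Brown fat minus white fat was 2.38 for Ctsz, 1.22 for Lipa, 0.98 for Scarb2, 0.86 for Ctsd, 0.76 for Lamp1, 0.73 for Tfeb, 0.70 for Mcoln1 and 0.70 for Atp6v0d1. It was 0.60 for Atp6v1h, 0.57 for Gusb, 0.55 for Ctsb, 0.51 for Npc2, 0.50 for Atp6v1a, 0.49 for Gaa, 0.43 for Atp6ap1, 0.42 for Tfe3, 0.40 for Sqstm1, 0.33 for Atp6v1b2 and 0.25 for Becn1. It was −1.45 for Ctsk, −0.83 for Cd63, −0.76 for Ctss and −0.64 for Ctsf. Npc1 passed with all 16 libraries (−0.45, adjusted p = 0.0479) and not without WAT_5C replicate 1 (−0.32, adjusted p = 0.0944).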

How the results depend on the processing

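Counted in both directions together, the members past the threshold stayed within 1.5 times their main number for the brown fat response, depot differences and difference of responses. The alternatives were RLE factors, library totals, no filter, DESeq2, the replicate block and the matching labels. Directions moved with library totals. In brown fat 28 rises and 4 falls became 16 and 14, where 68.8% of all genes passed. Between depots at 30 °C, 20 higher and 8 lower became 6 and 26, where 78.9% passed. At 5 °C without WAT_5C replicate 1, 29 and 10 became 8 and 25 (84.4%). For the difference of responses without that library, 19 and 4 became 9 and 9 (34.9%). In white fat DESeq2 gave 6 members with WAT_5C replicate 1 (5.9% of all genes) and 9 without it (12.3%), against 0 in both main counts (0.0632% and 2.11%). Replicate numbers were not taken to pair libraries: residuals of equal numbers correlated at −0.551 to 0.0185 within a depot and −0.346 to 0.324 between depots, and in 2 of 16 comparisons the equal number correlated best. With the replicate block 1 member passed in white fat without WAT_5C replicate 1. Leaving out 1 library gave 30 to 33 members in the brown fat response, where 52.7% to 56.6% of all genes passed. White fat gave 0 to 0 (at most 2.11% of all genes). Without WAT_5C replicate 1 it gave 0 to 4 (0.0555% to 4.29%, the highest where 4 passed). For the difference of responses the counts were 10 to 23 (16.2% to 31.3%, both highest without WAT_5C replicate 1). Without that library they were 21 to 25 (25.8% to 30.7%). Between depots they were 24 to 30 at 30 °C (65.6% to 72.8%) and 36 to 39 at 5 °C (67.8% to 76.2%). At 5 °C without that library they were 37 to 39 (70.5% to 76.7%).

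Signs turned mostly with library totals, which moved the median of all genes by −0.38 in brown fat. There they gave −0.25 for Ctsc, −0.24 for Ctsl, −0.26 for Gla, −0.22 for Hexa, −0.28 for Neu1, −0.15 for Atp6v0a1, −0.17 for Map1lc3a, −0.0687 for Map1lc3b and −0.14 for Becn1. In white fat they gave −0.10 for Tfe3, −0.0508 for Mitf and −0.0399 for Lamp1, and without WAT_5C replicate 1 −0.0156 for Tfe3 and −0.0461 for Lamp1. The difference of responses for Becn1 became −0.0013 with library totals and without that library. Between depots at 30 °C library totals gave −0.46 for Tfe3, −0.18 for Lamp1, −0.61 for Scarb2, −0.11 for Ctsb, −0.0201 for Ctsd, −0.58 for Gaa, −0.42 for Npc2, −0.0039 for Atp6v1a, −0.0525 for Atp6v1b2, −0.12 for Atp6v1h, −0.47 for Sqstm1 and −0.0577 for Atg7. Ctsc in brown fat was −0.0284 to 0.25 with 1 library left out and −0.0712 in the 4 libraries whose labels all match. Between depots at 30 °C, single libraries left out ended the calls of Gaa (0.17 to 0.28), Npc2 (0.38 to 0.47) and Scarb2 (0.22 to 0.24). In the difference of responses without WAT_5C replicate 1 they ended those of Atp6v1b2 (0.24 to 0.35, for 8 of 15), Becn1 (0.20 to 0.24, for 4), Sqstm1 (0.32 to 0.34, for 2) and Ctsf (−0.52, for 1). With all 16 they ended those of Lamp1, Atp6v0d1 and Npc1. The cause of these changes was not tested, and a fit with 1 library left out also holds fewer libraries.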
